A study of Bos taurus with 6 samples.

Results

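Genes of the unfolded protein response and of the heat shock chaperone system were measured in bovine cumulus cells matured with or without recombinant follicle-stimulating hormone (rFSH). The group was a list of 44 genes, and a gene entered with the probe named for it in the probe annotation that had the highest mean raw intensity over all arrays and channels. Of the 44 genes, 39 had such a probe, and all 39 were tested, among 13129 named genes tested in all. XBP1 and HYOU1 were named in the annotation under older symbols (XBPP1 and ORP150) and are described beside the 39. ATF6, CANX and DNAJA1 had no named probe and were not analysed here.

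The cells came from cumulus-oocyte complexes of Holstein cows, aspirated from slaughterhouse ovaries and cultured in groups of up to 10 complexes, so each RNA came from pooled complexes. The rFSH cells were matured with 0.5 µg/mL rFSH and the control cells without it, and the medium of both held 1 µg/mL estradiol. The labels name the control cells by a time of 6 h, whereas the growth protocol gives 22 to 24 h of culture for both groups, so whether the groups were matched in time is not settled and rFSH and time cannot be told apart. Each of 3 biological replicates (numbered 2, 3 and 4) was hybridised on 2 Agilent two-colour arrays with the dyes swapped, rFSH RNA and control RNA together, which gave 6 arrays and 3 independent ratios per gene.

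Proteins that enter the endoplasmic reticulum (ER) are folded there by chaperones and disulfide isomerases, and those that fail are sent to the proteasome by ER-associated degradation. When unfolded proteins accumulate, the sensors IRE1 (ERN1), PERK (EIF2AK3) and ATF6 raise folding and degradation capacity through the transcription factors XBP1, ATF4 and cleaved ATF6, while PERK slows translation. The heat shock response does the corresponding work in the cytosol through HSF1, with the HSP70 and HSP90 machines, and mitochondria hold their own set of chaperones. Cumulus cells answer FSH by making a hyaluronan-rich matrix, whose proteins pass through the secretory pathway.

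Between 38.3% and 83.3% of bovine probes exceeded the negative control spots per array and channel, with the lowest share in the control channel of the replicate 2 array that had rFSH in Cy3. The dye-swapped arrays of a replicate correlated at r = 0.49 over probes in replicate 2, 0.72 in replicate 3 and 0.71 in replicate 4. All 14 cumulus and granulosa markers were detected in both groups, as were 9 of 10 oocyte markers. Detected means 2 SD above the negative controls on at least 3 arrays of the group, so a detected marker can still be dim. Of the 14, 3 were called higher with rFSH (TNFAIP6, HAS2 and CYP11A1) and 1 was called lower (FSHR). The summed raw intensity of the oocyte markers was 1728 to 4388 in rFSH cells and 1443 to 5231 in controls, with replicate mean log2 ratios of 0.44, -0.80 and 0.03. These means hide larger differences in ZP2 (1.46, -3.14 and 0.22) and ZP4 (1.08, -2.67 and 0.03). In replicate 4 both were dim, with ZP2 at a log2 normalised intensity of 6.91 in rFSH cells and 6.70 in controls. That of 8 theca and stroma markers was 6563 to 10542 in rFSH cells and 13938 to 27132 in controls, with 2 of the 8 called lower. That sum was mostly ACTA2 (5302 to 8684 in rFSH cells and 12334 to 25363 in controls), and 6 of the 8 had log2 ratios of -0.14 to 0.09. Among 7 blood and endothelial markers 6 were detected, PECAM1 stayed at the level of the negative controls throughout, and the sums were 1544 to 5375 in rFSH cells and 1466 to 3363 in controls. These ranges hide a difference between replicates in PTPRC. Its log2 normalised intensities in replicates 2, 3 and 4 were 7.13, 7.23 and 11.02 in rFSH cells and 7.04, 7.14 and 10.93 in controls. PTPRC was thus far higher in replicate 4, in both groups. CD68 had log2 ratios of 1.27, 0.33 and 2.30 and was not called. The part of these markers in the results below was not tested, and in such bulk RNA fewer cells of a type and less RNA per cell cannot be told apart.

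Of the 39 genes, 3 were higher with rFSH and 1 was lower at an adjusted p under 0.05 (limma, moderated test of 3 replicate ratios, Benjamini-Hochberg over all 34831 tested probes). The shares over all named genes tested were 3.88% higher and 4.87% lower, 8.75% together (2.97% and 3.37% over all probes), beside 10.3% of the 39. The 39 probes were bright, and of the 1685 named genes at or above their median raw intensity 15.4% were called, so the count of calls does not set the 39 genes apart. HERPUD1, HSPH1 and HSPA9 rose and HSPD1 fell. The median log2 ratio of the 39 was 0.10 against 0.01 for all named genes, and 25 of the 39 lay above 0 (64.1%, against 51.1% of named genes). At an unadjusted p under 0.05, 11 genes were higher and 3 lower, where 13.5% and 17.4% of named genes were. Levels of the 3 rFSH samples and the 3 control samples did not overlap for 14 genes, 13 of them higher and only HSPE1 lower, a share of 35.9% against 28.1% of named genes. On all 6 arrays 7 genes lay above 0 (11.5% of named genes did) and 3 lay below 0 (15.3% did). These shares also depend on brightness. Of the 1685 bright named genes, 46.2% had a log2 ratio above 0. At an unadjusted p under 0.05 in limma, 385 of the 1685 were higher and 424 lower. On all 6 arrays 336 of them lay above 0 and 378 below 0. How many of them had rFSH and control levels that did not overlap was not counted, so the 35.9% has no comparison at like brightness.

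**Figure D1:**
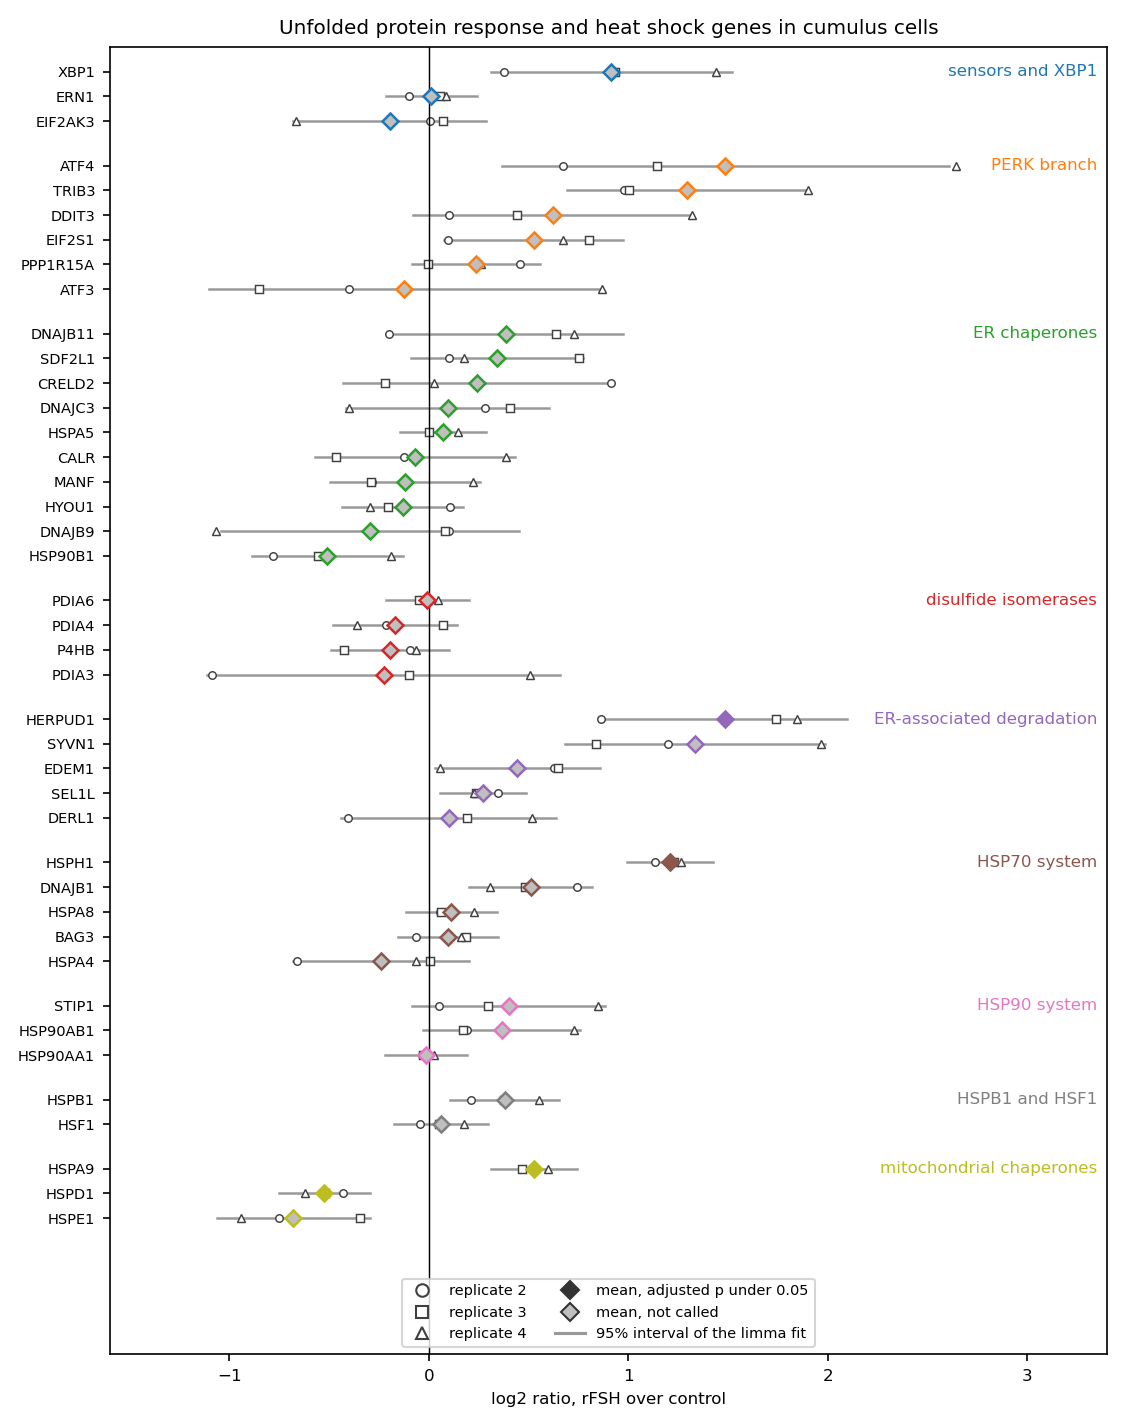
Log2 ratio of rFSH over control (horizontal axis) for the 39 genes with XBP1 and HYOU1, grouped by role; small open symbols are the 3 replicates, diamonds their means (filled where the adjusted p was under 0.05), and lines the 95% interval of the limma fit. ATF4, HERPUD1, SYVN1, TRIB3 and HSPH1 lie above 1, whereas the disulfide isomerases have means at or just below 0.

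Among the sensors, neither measured kinase passed the test. ERN1, the kinase and nuclease that splices XBP1 mRNA, had log2 normalised intensities of 7.03, 7.01 and 7.03 in rFSH cells, against 7.13, 6.96 and 6.94 in control cells (replicates 2, 3 and 4 in this and all following triplets). The groups overlapped, and it was detected on 5 of the 6 arrays for rFSH RNA and on 3 of them for control RNA. EIF2AK3 (PERK) had 8.27, 8.16 and 8.40 in rFSH cells against 8.26, 8.09 and 9.06 in control cells, with the replicate 4 control alone high. Its log2 ratio was -0.20 (95% interval -0.68 to 0.29).

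XBP1, the transcription factor made after IRE1 splicing, had 14.53, 14.81 and 14.96 in rFSH cells against 14.16, 13.87 and 13.52 in control cells. Every rFSH sample lay above every control sample and all 6 arrays were above 0. The log2 ratio was 0.92 ± 0.53 (SD, n = 3), with an adjusted p of 0.094 by limma. Whether the probe separates spliced from unspliced XBP1 mRNA is not known here.

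In the PERK branch the median log2 ratio over 6 genes was 0.57, 5 of 6 were above 0, and none passed the adjusted threshold. Phosphorylation of eIF2α, whose gene is EIF2S1, by PERK favours translation of ATF4, which switches on amino acid and stress genes. ATF4 had log2 levels of 11.97, 12.62 and 12.25 in rFSH cells, against 11.30, 11.48 and 9.61 in control cells. The groups did not overlap, and the replicate 4 control lay far below the other samples. The log2 ratios were 0.67, 1.14 and 2.64, with a mean of 1.49 ± 1.03, and the spread left an adjusted p of 0.119 by limma.

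TRIB3, a pseudokinase induced by ATF4 and CHOP, had 9.04, 9.02 and 9.06 in rFSH cells against 8.07, 8.01 and 7.16 in control cells. The rFSH samples were nearly level while the replicate 4 control was again the lowest. Its log2 ratio of 1.29 ± 0.53 had an adjusted p of 0.052 by limma, just outside the threshold, and without replicate 4 it was 0.99 with an adjusted p of 0.039.

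DDIT3 (CHOP), a pro-apoptotic transcription factor of the same branch, had 8.38, 8.64 and 8.51 in rFSH cells against 8.28, 8.19 and 7.19 in control cells. In replicate 2 the spot of the array whose Cy5 channel held rFSH RNA was ignored by the image software, so its replicate 2 value rests on 1 array. The log2 ratio was 0.62 ± 0.63 (adjusted p = 0.242, limma). Its other 2 probes gave 0.54 ± 0.19 and 0.33 ± 0.23, neither of which was called.

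EIF2S1 had a log2 ratio of 0.53 ± 0.38 (adjusted p = 0.151, limma), and its rFSH and control levels did not overlap. PPP1R15A, the phosphatase subunit that reverses eIF2α phosphorylation, was dim and had 0.24 ± 0.23. ATF3, a stress-induced transcription factor, changed sign between replicates, with -0.40, -0.85 and 0.87. The replicate 4 value was the highest of the 3 for 4 of the 6 genes of this branch, and the mean over the 6 genes was 0.32, 0.42 and 1.28 in replicates 2, 3 and 4. Over all 39 genes, 24 had their highest ratio in replicate 4 (61.5%, against 33.3% of named genes), and the replicate medians were 0.06, 0.08 and 0.22. The replicate medians of all named genes were 0.01, 0.00 and 0.02. Those of the 1685 bright named genes were -0.03, -0.05 and 0.03, also highest in replicate 4. The share of bright genes with their highest ratio in replicate 4 was not counted. The replicate means of the cumulus and granulosa markers were 0.45, 0.38 and 0.69, also highest in replicate 4, and their part in this was not tested. Those means join genes that moved in opposite directions, from 3.77 for TNFAIP6 to -1.17 for FST. They are therefore not a measure of cumulus cell content alone. The blood and endothelial markers had replicate means of 0.30, 0.17 and 0.49, and PTPRC was high in both groups of replicate 4. Their part in the replicate 4 values was not tested either.

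**Figure D2:**
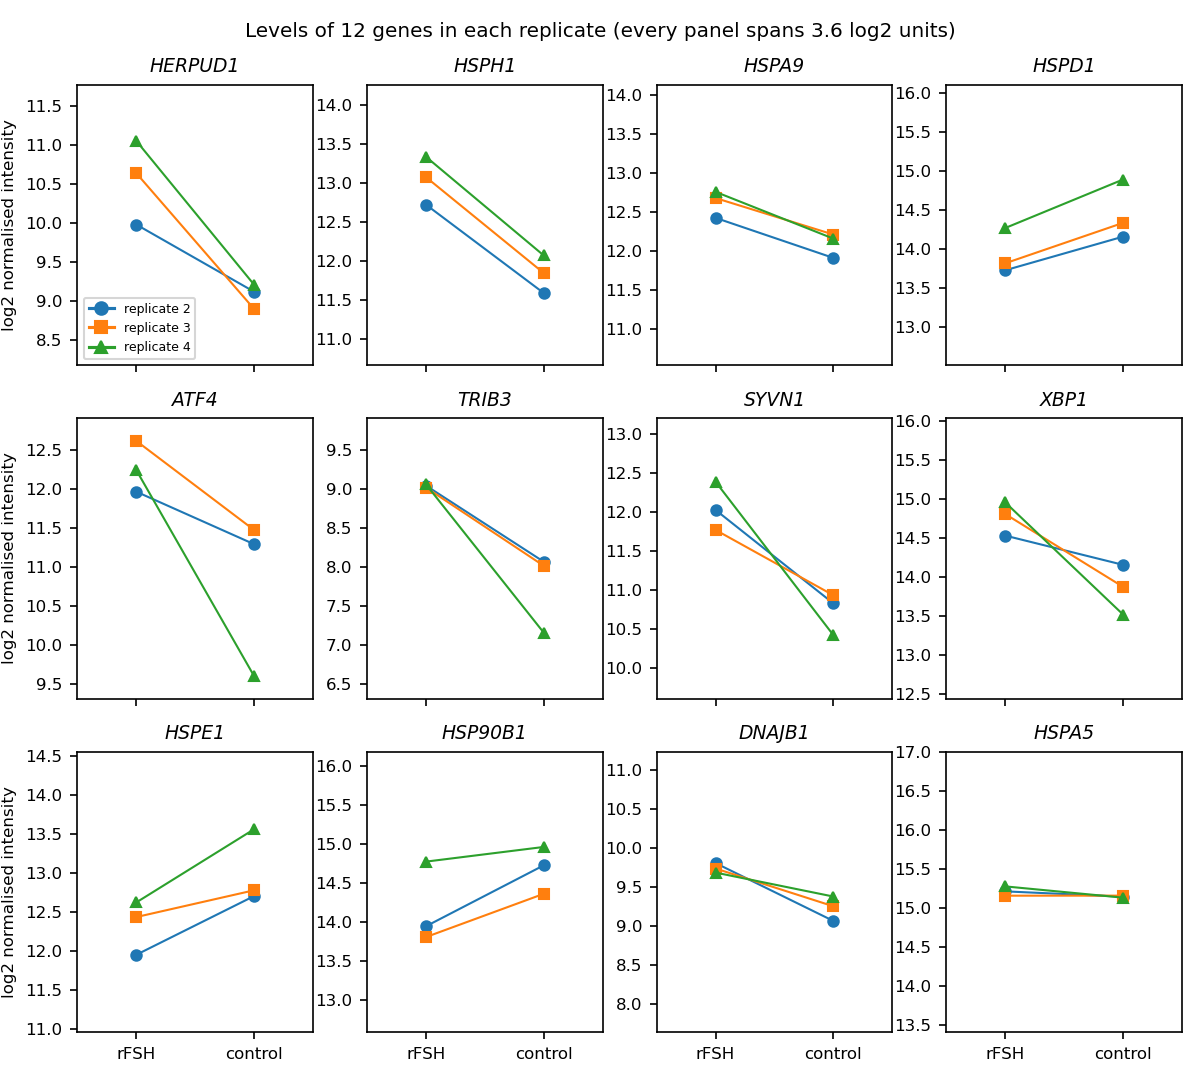
Log2 normalised intensity (vertical axes, 3.6 log2 units in every panel) of 12 genes in rFSH cells and control cells, 1 symbol and line for each replicate. In HSPH1 and HSPA9 the 3 lines run nearly parallel, whereas in ATF4, TRIB3 and XBP1 the replicate 4 line is the steepest.

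The ER chaperones showed no common direction. Of 9 genes tested none was called, 5 lay above 0 and 4 below, and their median log2 ratio was 0.07. HSPA5 (BiP), the main ER HSP70 and the usual readout of an unfolded protein response, had 15.21, 15.15 and 15.27 in rFSH cells against 15.14, 15.15 and 15.13 in control cells. The log2 ratio was 0.07 ± 0.07 (95% interval -0.15 to 0.29). HSPA5 is one of 4 genes whose spots were among the brightest of the arrays, as given further on.

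HSP90B1 (GRP94), the ER member of the HSP90 family, had 13.94, 13.80 and 14.77 in rFSH cells against 14.72, 14.36 and 14.96 in control cells. Each pair was lower with rFSH although the groups overlapped, and all 6 arrays lay below 0. The log2 ratio was -0.51 ± 0.30 (adjusted p = 0.117, limma). A second, dimmer HSP90B1 probe gave 0.22 ± 0.37, so the probes differed in sign.

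None of the 3 ER co-chaperones of the J-domain family was called. DNAJB11 had 0.39 ± 0.51, DNAJC3 0.09 ± 0.44 and DNAJB9 -0.29 ± 0.67. DNAJC3 and DNAJB9 both had 2 ratios above 0 and a replicate 4 ratio below 0 (-0.40 and -1.07). SDF2L1, which works with BiP and DNAJB11, had 0.34 ± 0.35 with no overlap between rFSH and control levels. CRELD2 and MANF, small ER proteins made under ER stress, had 0.24 ± 0.59 and -0.12 ± 0.29. CALR, the lectin chaperone of the glycoprotein folding cycle, had -0.07 ± 0.43. HYOU1, the large HSP70 of the ER, had -0.13 ± 0.21.

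The 4 disulfide isomerases, which form and rearrange disulfide bonds in the ER, were not called. PDIA3, PDIA4 and P4HB had mean log2 ratios below 0, and PDIA6 gave no direction. P4HB turned positive under 1 of 17 other settings, the arrays with rFSH in Cy5 alone. It had 0.02 there and -0.42 in the arrays with rFSH in Cy3. PDIA3, the partner of the lectin chaperones, had 12.14, 12.89 and 13.53 in rFSH cells against 13.22, 12.99 and 13.02 in control cells. The control samples were close together and the rFSH samples spread on both sides of them, for a ratio of -0.23 ± 0.80. PDIA4 had -0.17 ± 0.22, P4HB, which also serves collagen hydroxylation, -0.20 ± 0.20, and PDIA6 -0.01 ± 0.05. The median pixel of the PDIA6 spot was at the highest value of the scale in 2 rFSH and 3 control readings, and its sign turned under 4 of 17 settings. A second PDIA6 probe had -0.74 ± 0.40 (adjusted p = 0.091, limma), of which -1.40 came from the arrays with rFSH in Cy3 and -0.07 from those with rFSH in Cy5, and the third probe had 0.03 ± 0.04.

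The 5 genes of ER-associated degradation all had mean ratios above 0, with a median of 0.44, though DERL1 turned negative under 2 of 17 other settings. Of the 5, 1 was called. HERPUD1, an ER membrane protein that organises the degradation complex, had log2 levels of 9.98, 10.63 and 11.05 in rFSH cells, against 9.11, 8.89 and 9.20 in control cells. The lowest rFSH sample lay above the highest control sample, and all 6 arrays were above 0. HERPUD1 rose 2.79-fold, with a log2 ratio of 1.48 ± 0.54 and an adjusted p of 0.045 by limma. The adjusted p was 0.070 to 0.136 when any 1 replicate was left out. Without replicate 2 or replicate 3 no probe of any gene was called. Only the run without replicate 4 could have kept the HERPUD1 call, and it did not.

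SYVN1 (HRD1), the ubiquitin ligase at the centre of that complex, had 12.02, 11.76 and 12.38 in rFSH cells against 10.82, 10.93 and 10.41 in control cells. The groups did not overlap. Its log2 ratio of 1.33 ± 0.58 had an adjusted p of 0.056 by limma, and without replicate 4 it was 1.02 with an adjusted p of 0.049. SEL1L, the adaptor of SYVN1, had 0.27 ± 0.07 (adjusted p = 0.131, limma), and its 2 other probes gave -0.04 ± 0.39 and -0.16 ± 0.23. EDEM1, which marks misfolded glycoproteins, had 0.44 ± 0.34 (adjusted p = 0.175, limma), and its 2 other probes gave 0.25 and 0.15. DERL1, a membrane protein of the exit channel, had 0.10 ± 0.47, and its other probe gave -0.10 ± 0.02.

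In the cytosolic HSP70 system 1 of 5 genes was called. HSPH1 (HSP105), an HSP110-type partner that exchanges nucleotide on HSP70, had 12.73, 13.08 and 13.34 in rFSH cells, against 11.59, 11.85 and 12.08 in control cells. The replicate ratios were 1.13, 1.23 and 1.27, the groups did not overlap, and both dye orientations gave nearly the same value (1.17 with rFSH in Cy5 and 1.25 with rFSH in Cy3). HSPH1 rose 2.31-fold, a log2 ratio of 1.21 ± 0.07 with an adjusted p of 0.019 by limma. The gene was called under 17 of 17 other settings that used all replicates, 1 of which repeated the reported fit. It was also called without replicate 4 (adjusted p = 0.033, limma). Without replicate 2 or 3 no probe of any gene was called.

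None of the other 4 genes of the HSP70 system was called. HSPA8, the constitutive HSP70, had 15.22, 15.18 and 15.30 in rFSH cells against 15.16, 15.12 and 15.08 in control cells, a ratio of 0.11 ± 0.10 on a very bright probe. HSPA4, another HSP110-type protein, had -0.24 ± 0.37. BAG3, an HSF1 target that exchanges nucleotide on HSP70, had 0.10 ± 0.14. HSF1, the heat shock transcription factor, was near background at 0.06 ± 0.11, and its activity is set mainly after translation.

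DNAJB1 (HSP40), the stress-inducible J-domain partner of HSP70, had 9.80, 9.73 and 9.68 in rFSH cells against 9.06, 9.25 and 9.37 in control cells. The mean log2 ratio of 0.51 ± 0.22 (adjusted p = 0.081, limma) joined unlike dye orientations, with 0.09, -0.20 and -0.40 where rFSH was in Cy5 and 1.39, 1.17 and 1.02 where it was in Cy3. Its dye term was the only one among these 41 genes to pass an adjusted p under 0.05 (-0.68, adjusted p = 0.027, limma). Its other 2 probes gave 0.49 ± 0.43 and 0.56 ± 0.28 and lay above 0 in both orientations.

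In the HSP90 system STIP1 (HOP), which hands clients between HSP70 and HSP90, had 0.40 ± 0.41 (adjusted p = 0.270, limma) and was above 0 on all 6 arrays, and its second probe gave 0.40 ± 0.29. HSP90AB1, the constitutive cytosolic HSP90, had 14.78, 14.78 and 14.92 in rFSH cells against 14.59, 14.61 and 14.19 in control cells. The groups did not overlap, and the ratio was 0.36 ± 0.32 (adjusted p = 0.226, limma). HSP90AA1, the inducible form, had -0.01 ± 0.03 on a probe among the brightest of the arrays. HSPB1 (HSP27), a small heat shock protein that also binds actin, had 0.38 ± 0.17 (adjusted p = 0.109, limma), with 0.00 from the arrays with rFSH in Cy5 and 0.76 from those with rFSH in Cy3. Its second probe had 0.47 ± 0.34.

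Of the 3 mitochondrial chaperones 1 rose and 1 fell. HSPA9 (mortalin), the mitochondrial HSP70 that pulls in imported proteins, had 12.43, 12.68 and 12.76 in rFSH cells, against 11.91, 12.21 and 12.16 in control cells. The groups did not overlap, and HSPA9 rose 1.44-fold, a log2 ratio of 0.53 ± 0.07 with an adjusted p of 0.044 by limma. The dye orientations gave 0.67 with rFSH in Cy5 and 0.38 with rFSH in Cy3, and the 2 arrays of replicate 4 gave 1.11 and 0.09. The call was lost under 10 of 17 other settings, each dye orientation alone and the random replicate block among them. HSPD1 (HSP60), the chaperonin of the mitochondrial matrix, had 13.73, 13.82 and 14.27 in rFSH cells, against 14.16, 14.34 and 14.90 in control cells. Each pair was lower with rFSH although the groups overlapped.

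HSPD1 fell by 0.52 on the log2 scale (SD 0.10, adjusted p = 0.047, limma), with -0.51 and -0.54 in the dye orientations. A second, dimmer HSPD1 probe gave 0.36 ± 0.34, made of -0.69 with rFSH in Cy5 and 1.40 with rFSH in Cy3, and was not called. HSPE1 (HSP10), the lid of the HSP60 chaperonin, had 11.96, 12.44 and 12.63 in rFSH cells against 12.71, 12.78 and 13.57 in control cells. The groups did not overlap, and the log2 ratio was -0.68 ± 0.30 with an adjusted p of 0.072 by limma. The HSPD1 call was lost under 12 of 17 other settings. Neither HSPA9 (adjusted p 0.121 to 0.159) nor HSPD1 (0.132 to 0.151) kept its call when any 1 replicate was left out. Without replicate 2 or 3 no probe of any gene was called, so only the run without replicate 4 could have kept either call.

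**Figure D3:**
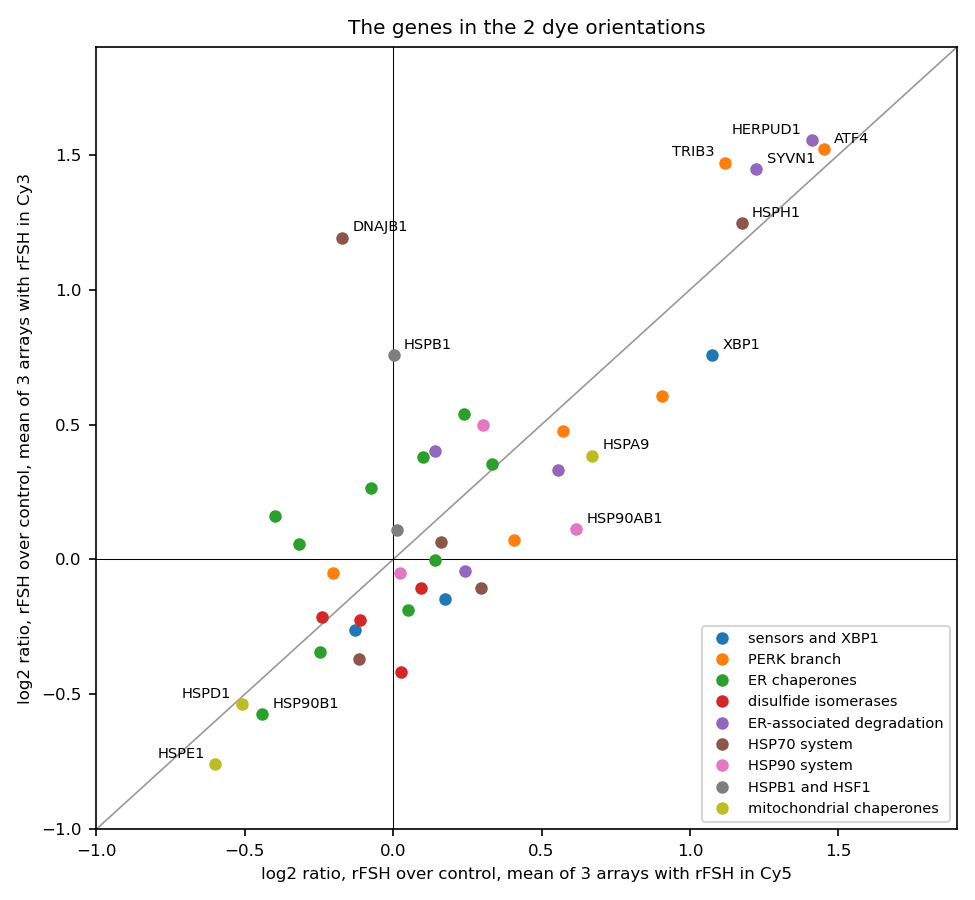
Mean log2 ratio over the 3 arrays with rFSH in Cy5 (horizontal axis) against that over the 3 arrays with rFSH in Cy3 (vertical axis), 1 point for each of the 39 genes with XBP1 and HYOU1, coloured by role, with the line of equality. HERPUD1, HSPH1, ATF4, SYVN1, TRIB3 and HSPD1 lie near the line, whereas DNAJB1 and HSPB1 lie far above it.

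The mean ratio had opposite signs in the 2 dye orientations for 11 of the 39 genes. Apart from DNAJB1, these were genes with small ratios, among them HSPA5, HSP90AA1, PDIA6, P4HB, CALR, MANF, DNAJC3, DERL1, ERN1 and BAG3. The SD between replicates of the 39 genes was 0.03 to 1.03, with a median of 0.32.

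Ratios were small at both ends of the brightness scale, described here in ranges of raw intensity set after the values were seen. HSPA5, HSPA8, HSP90AA1 and PDIA6 had raw mean intensities of 33645 to 43786, which is 83.2% to 98.2% of the brightest bovine probe of the same array and channel. Of the 105 named genes with a mean raw intensity above 33000, these 4 included, 1 was called (0.952%) and the median size of the log2 ratio was 0.05. For the 458 named genes between 10000 and 33000, 17.5% were called and the median size was 0.42. The median pixel was at the highest value of the scale in 5 PDIA6 readings and 1 HSPA8 reading and in none of HSPA5 or HSP90AA1. Whether brightness narrowed the ratios of these 4 genes was not tested. At the dim end, the 5983 named genes below 300 had 1.17% called and a median size of 0.09, and ERN1, PPP1R15A and HSF1 lie in that range.

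**Figure D4:**
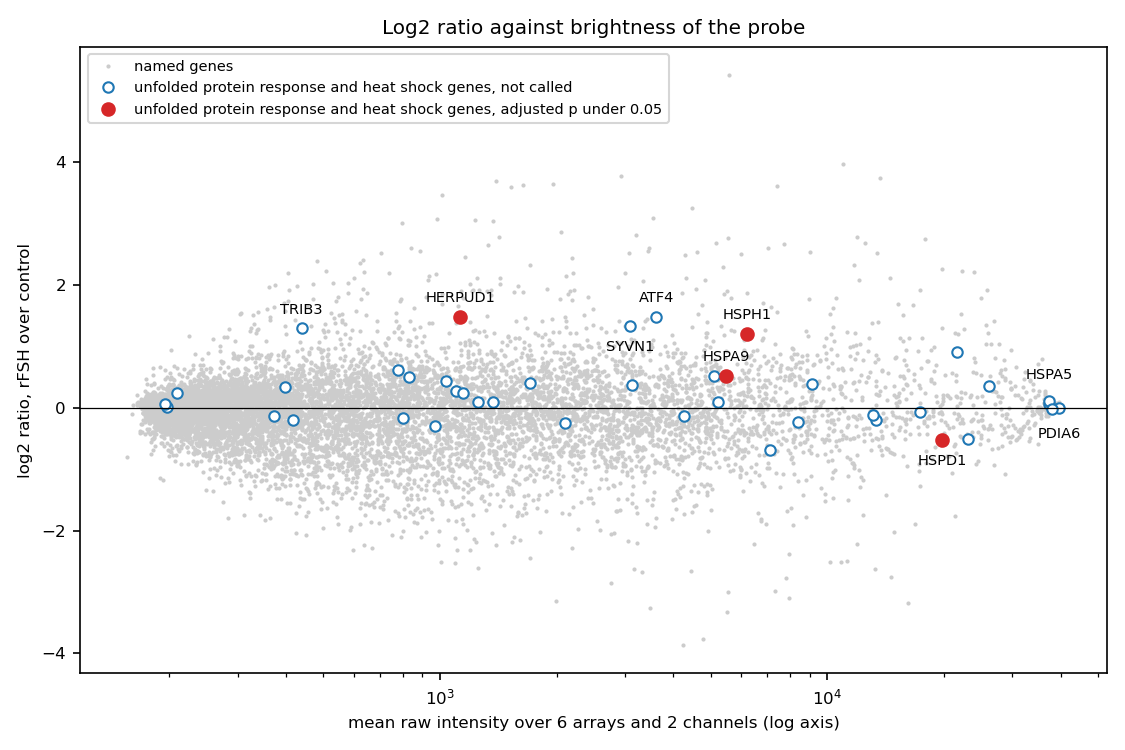
Log2 ratio of rFSH over control (vertical axis) against mean raw intensity (horizontal log axis) for all named genes in grey, with the genes of the group as open circles and those with an adjusted p under 0.05 filled. The ratios close in on 0 at both ends of the intensity scale, where HSPA5 and PDIA6 lie on the right.

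Other genes of the same pathways were counted from 11 lists that do not hold the 44 genes, with changes given on the log2 scale. Of their 227 tested genes 6 rose and 13 fell, 8.37% in all, near the 8.75% of all named genes. Among 20 further sensors and regulators tested, none was called higher and 2 fell. EIF2AK2 (PKR), the eIF2α kinase activated by double-stranded RNA, fell by 1.66 (SD 0.21), and EIF2AK4 (GCN2), the kinase that senses uncharged tRNA, fell by 0.78 (SD 0.20). EIF2AK3, the ER-resident kinase of the same family, had -0.20 and was not called.

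Of 19 ATF4 targets 13 lay above 0, where 51.1% of all named genes did, with a median of 0.27, and none was called higher. Their mean was 0.03, 0.15 and 0.68 in replicates 2, 3 and 4, highest in replicate 4 as in ATF4 itself (0.67, 1.14 and 2.64). The 1 target called was SHMT2, the mitochondrial serine hydroxymethyltransferase, which fell by 0.70 (SD 0.19), and its 3 other probes had -0.47, -0.42 and -0.01.

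Of 32 genes of ER folding and redox, 2 rose and 2 fell. SIL1, the nucleotide exchange factor of BiP, rose by 1.31 (SD 0.43) and CDNF, a relative of MANF, rose by 1.11 (SD 0.38). SUMF1, which activates sulfatases in the ER, fell by 0.80 (SD 0.14) and PPIC, a cyclophilin of the secretory pathway, fell by 0.73 (SD 0.14). A second, dimmer probe of SIL1, CDNF and SUMF1 had -0.06, 0.02 and 0.13, so these calls rest on 1 probe each.

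In the wider list of ER-associated degradation 1 of 23 genes rose and 3 fell. Of the 23, 13 lay above 0, with a median log2 ratio of 0.04, beside 0.44 for the 5 genes of the group. EDEM3, an EDEM1 relative that trims mannose, fell by 1.35 (SD 0.08), while its 2 other probes had -0.08 and 0.06. ERLEC1, an ER lectin, fell by 1.07 (SD 0.38) and UBXN4, which recruits the p97 segregase to the ER membrane, fell by 0.98 (SD 0.19). NPLOC4, a p97 cofactor, rose by 0.64 (SD 0.09).

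Among 35 genes of translocation and ER export none rose, and SPCS3, a signal peptidase subunit, and SEC24D, a cargo adaptor of COPII vesicles, fell by 0.88 (SD 0.28) and 0.85 (SD 0.27). None of 19 genes of N-glycosylation and the lectin cycle was called, with 3 higher and 4 lower at an unadjusted p under 0.05 in limma (13.5% and 17.4% of all named genes).

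Of 28 further HSP70, HSP40 and exchange factor genes 2 rose and 3 fell. HSPA4L, an HSP110-type protein related to HSPH1, fell by 1.89 (SD 0.66), opposite to HSPH1 at 1.21. BAG2, which restrains the ubiquitin ligase CHIP, fell by 0.80 (SD 0.18) and DNAJC2, a chaperone at the ribosome, fell by 0.69 (SD 0.14). DNAJA3, a mitochondrial J-domain protein, rose by 0.87 (SD 0.23) and DNAJC5, the cysteine string protein of secretory vesicles, rose by 0.83 (SD 0.17). The other tested probes of BAG2 had 0.13 and 0.14, and those of DNAJA3 had 0.51 and 0.07.

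None of 16 HSP90 co-chaperones, 7 small heat shock proteins and heat shock factors, or 14 CCT and prefoldin genes was called. At an unadjusted p under 0.05 in limma, 4 of the HSP90 co-chaperones were higher and 2 lower, 0 and 1 of the small heat shock list, and 1 and 4 of the CCT and prefoldin list, beside the same 13.5% and 17.4% of all named genes. Of 14 further mitochondrial chaperones and proteases HTRA2, a protease of the intermembrane space, rose by 0.73 (SD 0.16). The 19 calls in these lists had adjusted p of 0.017 to 0.046 by limma. With replicate 4 left out 8 of the 19 were called. With replicate 2 or replicate 3 left out no probe of any gene was called, so none of the 19 could be.

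**Figure D5:**
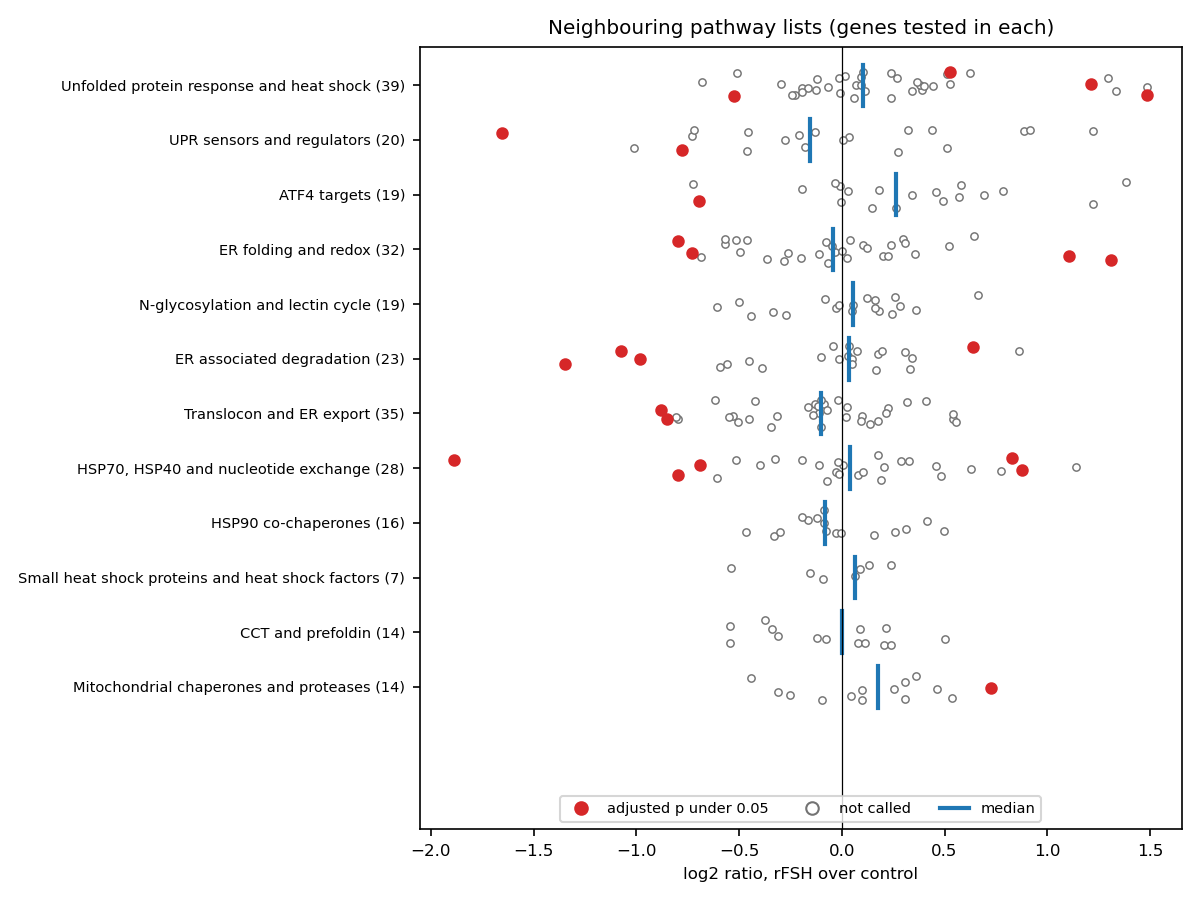
Log2 ratio of rFSH over control (horizontal axis) of every tested gene in the unfolded protein response and heat shock group and in 11 neighbouring pathway lists, with the number tested in brackets, filled points for an adjusted p under 0.05 and bars for list medians. The medians lie between -0.16 for the sensors and regulators and 0.27 for the ATF4 targets, and filled points lie on both sides of 0.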

How the data were processed

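The 6 arrays of the comparison carried rFSH and control cumulus RNA after a linear T7 amplification and direct chemical Cy3 or Cy5 labelling, per the labels' protocols. The deposited scanner tables hold raw spot and background intensity at 532 nm and 635 nm, with no normalization by the authors, per the file headers. The deposited log2 ratios of the authors, made with a normalization not given in the sources used here, followed the scanner log ratios (r of 0.98 to 0.99 per array) and served as an alternative. The columns marking ignored spots are the image software's, per the file headers.

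With limma 3.58.1 in R 4.3.3, mean intensities were corrected by normexp (offset 50) and normalized by loess within each array (span 0.3), and ratios were turned to rFSH over control by the dye labels. The 2 arrays of a replicate were averaged, and 3 ratios per probe were tested against 0 (lmFit, eBayes, Benjamini-Hochberg), so the design is paired by array. Probes 2 SD above the negative controls on at least 3 arrays in either group were kept, 34831 of 43794. Log2 levels per channel came from Aquantile scaling. Of the bovine probes 21790 had 1 symbol, updated through RefSeq synonyms, and 22004 are unnamed here.

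All 44 genes are named, called or not, and from the other lists every gene with an adjusted p under 0.05. The genes and lists were chosen with earlier results of these data known. The fit was tested on simulated data. Precision is limited by the number of arrays. The labels do not say which animals each biological replicate pooled. Sequences and coordinates were not used here.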

Additional observations from a re-analysis of the deposited data

How the results depend on the processing

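Counts are given as probes higher and lower, then as genes of the group higher and lower (1035 and 1173, 3 and 1 as reported). Without background correction they were 570 and 482, 2 and 0. With a normexp offset of 0 they were 1426 and 1863, 4 and 0. With plain subtraction they were 747 and 715, 2 and 0. With median centring in place of loess they were 777 and 1848, 2 and 0, and 29.6% of calls were higher against 46.9%. The deposited log2 ratios gave 1029 and 944, 4 and 1 with TRIB3 added, and 52.2% of calls were higher. Detection in both channels of every array gave 1513 and 2011, 5 and 1. The arrays with rFSH in Cy5 alone gave 1566 and 1833, 4 and 0, and those with rFSH in Cy3 alone gave 1576 and 1755, 6 and 0. A random replicate block over 6 arrays with a dye term gave 2674 and 3381, 6 and 2, and unpaired channel values with no replicate block gave 468 and 558, 2 and 0. A threshold of 0.1 gave 2330 and 2771, 6 and 2, and one of 0.05 with at least 2-fold gave 475 and 575, 2 and 0. The mean over a gene's probes gave 4 and 0 genes. An intensity trend and robust eBayes, both chosen after seeing the data, gave 1076 and 1710 probes with 4 and 0 genes, and 823 and 877 probes with 2 and 0 genes. Median pixel intensities moved the group's median log2 ratio to 0.23, and it was 0.06 to 0.14 under the others. Leaving out 1 replicate gave 0 to 510 probes higher and 0 to 677 lower, 0 to 3 genes higher and 0 to 0 lower. Without replicate 2 and without replicate 3 limma called 0 probes, while 6875 and 7399 had an unadjusted p under 0.05. Without replicate 4, TRIB3, SYVN1 and HSPH1 were called. Without the replicate 2 array that had rFSH in Cy3, SYVN1, HSPH1 and HSPD1 were, among 1186 probes higher and 1638 lower. None of the 4 genes called as reported changed sign under any alternative run, whereas DNAJB1 was -0.17 in the arrays with rFSH in Cy5 and 1.19 in those with rFSH in Cy3. Over 17 alternatives with all replicates, HSPH1 was called in 17, HERPUD1 in 12, TRIB3 and SYVN1 in 9 each, HSPA9 in 7, HSPD1 in 5, XBP1 in 4, and ATF4, HSPE1 and DNAJB1 in 2 each. Among the 17, taking the brightest tested probe of a gene repeated the reported fit, with 1035 and 1173 probes and the same genes called. That setting could not lose a call. The cause of these shifts was not tested. With 3 ratios per gene and very bright spots for HSPA5, HSPA8, HSP90AA1 and PDIA6, a call missing here does not show that a gene did not respond.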

Other observations

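Where several probes read 1 gene, they differed in sign for HSP90B1, HSPD1, PDIA6, SEL1L and DERL1, and shared a sign for DDIT3, EDEM1, DNAJB1, HSPB1 and STIP1 among the 39 genes. The 3 DNAJB1 probes gave log2 ratios of 0.51, 0.49 and 0.56 although their dye orientations differed, and the 2 STIP1 probes gave 0.40 and 0.40. No gene of the group, of 40 sets of 6 array ratios searched, had 1 array standing apart by Dixon's criterion, where 2 would be by chance. That chance figure takes the 6 ratios as independent, although they are 3 dye-swapped pairs. A replicate standing apart gives 2 neighbouring values, as for ATF4 in replicate 4 (2.73 and 2.55), and can be missed by this search. Its outcome therefore says nothing about replicates standing apart.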
